A study of Rattus norvegicus with 4 samples.

Results

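The genes described here are 68 chromatin regulators: ATP-dependent chromatin remodellers (Smarc and Chd genes), enzymes that add or remove methyl groups on histone lysines (Kmt2, Kmt5, Setd and Kdm genes), bromodomain proteins (Brd genes) and proteins with an AT-rich interaction domain (Arid genes). They are all genes whose symbol begins with one of those family names followed by a number or subunit letter and that carry an annotated open reading frame (ORF) in the deposited ORF table. They are 68 of 13694 genes with an annotated ORF, and each was represented by its annotated ORF with the most summed footprints. The 68 genes have 80 annotated ORFs of the 18847 ORFs of all classes in the table. Counts were high enough to test for 62 of the 68, against 11286 of all 13694 genes.

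Ribosome profiling, the sequencing of RNA fragments protected by ribosomes, was performed on ventricular cardiomyocytes of Sprague-Dawley rats taken at postnatal day 2. Of the 4 libraries, 2 came from cells exposed to 20 µM phenylephrine (PE, an α1-adrenergic agonist that makes cultured cardiomyocytes grow) for 24 h and 2 from control cells; no genetic change is named for either group. The titles of the samples give the groups; the treatment text mentions PE for all 4. Both groups were primary cells grown in serum-containing medium after a pre-plating step meant to remove other cells. They are a model of immature heart muscle and still held other cell types. A footprint count combines the amount of an mRNA with its translation, and RNA-seq was not analysed here, so these are not separated. Fewer cells of a type and less RNA per cell cannot be told apart either. Nothing in the labels says that replicates are separate cultures, and p-values here speak only of the spread among these 4 samples.

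Chromatin remodellers use ATP to slide, evict or exchange nucleosomes. Methyltransferases and demethylases write and erase lysine methyl marks on histones, and bromodomains bind acetylated lysines. In the heart, the SWI/SNF (BAF) complex and the NuRD complex around Chd4 are known for their part in cardiac gene programmes and in the growth response of muscle cells.

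Library totals over all ORFs ran from 11446574 to 13827599 footprints. The 68 genes together took 0.336% and 0.333% of footprints in control 1 and control 2, and 0.302% and 0.301% in PE 1 and PE 2. Both PE libraries thus lay below both control libraries. Cardiomyocyte markers were abundant in every library. Their summed levels were 80060 and 80056 CPM (counts scaled to a common library size) in control and 95824 and 96587 in PE. Of 10 tested markers, 7 were lower in PE and 3 higher, namely Nppa, Actc1 and Tnnt2. Nppa had 4973 and 4825 CPM in control and 17752 and 17870 in PE. Actc1 had 24200 and 24176 CPM in control and 34182 and 34540 in PE. Fibroblast markers summed to 34717 and 34987 CPM in control and to 21083 and 21315 in PE, and 7 of 9 tested were lower and 1 higher (Col1a2 had too few counts to test). Endothelial markers summed to 232 and 224 CPM against 134 and 140 (4 of 7 lower, 1 higher), and macrophage markers to 508 and 484 against 346 and 342 (6 of 7 lower, Cd163 at 0 counts). Smooth muscle markers summed to 2510 and 2549 CPM in control and 2636 and 2670 in PE. Of these 7, Cnn1 and Cspg4 were higher and 5 lower. Schwann cell and neuron markers summed to 81.3 and 80.5 CPM in control and 111 and 126 in PE (2 of 4 higher). Markers of dividing cells summed to 781 and 778 CPM in control and 705 and 709 in PE (1 of 12 higher, 6 lower). Over all tested genes 22.3% were called higher and 22.8% lower. With the trend over ORF length described below removed, 2 of the 12 markers of dividing cells were higher and 3 lower. All genes then had 24.4% and 19.0%. The part of these shifts in cell type markers in the results below was not tested.

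Among the 62 tested members, 4 rose and 22 fell with PE at an adjusted p below 0.05, and 36 did not pass (edgeR's quasi-likelihood test, Benjamini-Hochberg adjustment over 12609 ORFs). In all tested genes, taken with 1 annotated ORF each, 22.3% were called higher and 22.8% lower. The members' shares were 6.45% and 35.5%. The 4 that rose were Arid5a, Setd3, Smarcd3 and Smarca4. The median log2 fold change (PE against control) was -0.15 over the members and -0.01 over all genes, and 42 members were lower by estimate, with 51.0% of all genes lower in the same sense. Control and PE libraries did not overlap for 41 members (66.1%; all genes 70.3%).

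Most of these changes were small. Of the 26 called members, 16 changed by less than 1.25-fold, and Arid5a and Kdm6b were the only 2 of 62 tested members (3.23%) that were called with a change of at least 1.5-fold, against 16.8% of all genes. In the plot of changes by role, all points except those of Arid5a and Kdm6b lie within 0.5 of zero on the log2 scale.

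**Figure D1:**
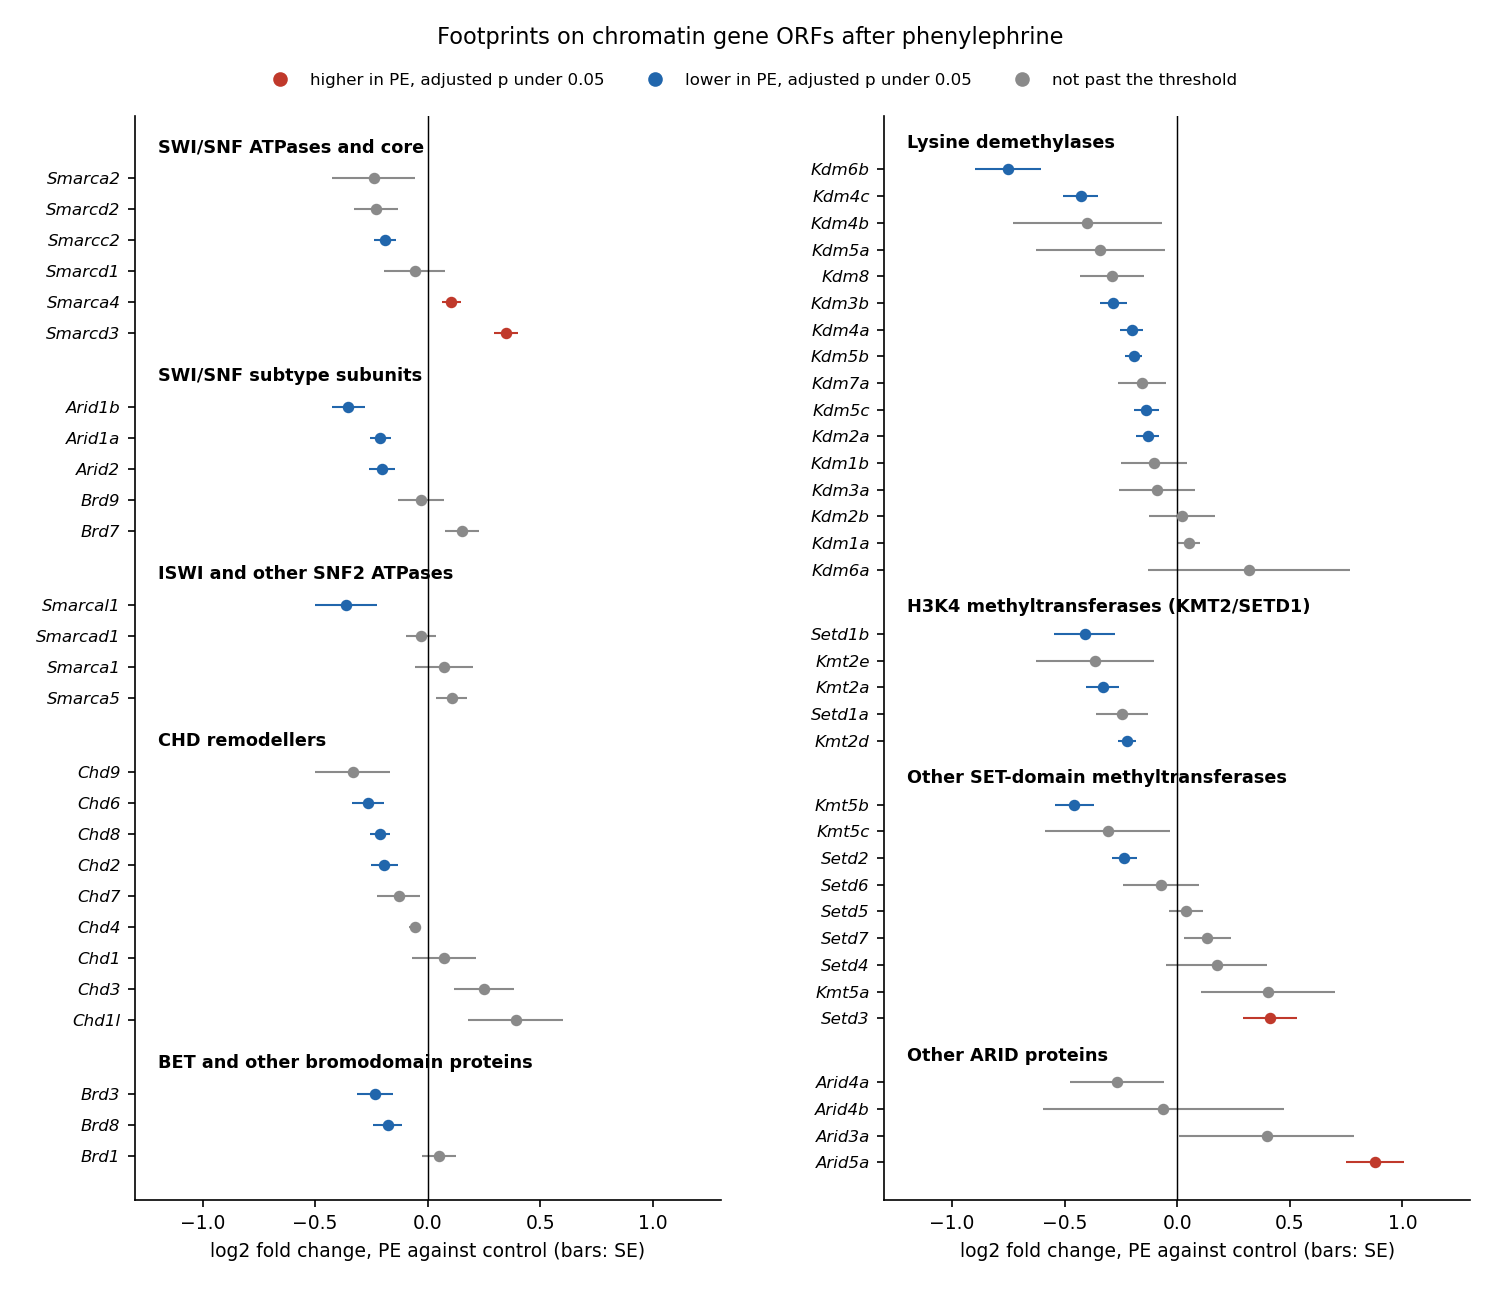
Log2 fold change of PE against control for the tested members, grouped by role; points are edgeR estimates, bars their standard errors, colours the direction of members past an adjusted p of 0.05. The 22 lower members spread over 8 of the 9 roles, and Arid5a and Kdm6b are the highest and lowest.

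The promoters of 3 genes are shown here for reference: Arid5a and Kdm6b, the members with the largest rise and fall, and Smarcd3, the SWI/SNF subunit with the clearest rise. Each line is the 250 bases before the gene's start in RefSeq, on the gene's own strand, on the GRCr8 build: chr9:46030329-46030578 (plus strand) for Arid5a, chr4:11440950-11441199 (plus strand) for Smarcd3 and chr10:54641015-54641264 (minus strand) for Kdm6b. Capitals mark matches to the GC box GGGCGG on either strand.
Arid5a: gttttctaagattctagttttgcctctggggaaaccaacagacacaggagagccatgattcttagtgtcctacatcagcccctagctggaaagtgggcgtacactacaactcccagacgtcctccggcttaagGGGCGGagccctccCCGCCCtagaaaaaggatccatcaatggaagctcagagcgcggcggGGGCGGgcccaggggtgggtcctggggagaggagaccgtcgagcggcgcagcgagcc
Smarcd3: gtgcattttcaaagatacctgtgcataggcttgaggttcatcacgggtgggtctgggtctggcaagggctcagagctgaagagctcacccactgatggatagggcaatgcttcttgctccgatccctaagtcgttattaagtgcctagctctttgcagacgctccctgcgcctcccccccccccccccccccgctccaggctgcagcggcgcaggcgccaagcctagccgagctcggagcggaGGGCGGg
Kdm6b: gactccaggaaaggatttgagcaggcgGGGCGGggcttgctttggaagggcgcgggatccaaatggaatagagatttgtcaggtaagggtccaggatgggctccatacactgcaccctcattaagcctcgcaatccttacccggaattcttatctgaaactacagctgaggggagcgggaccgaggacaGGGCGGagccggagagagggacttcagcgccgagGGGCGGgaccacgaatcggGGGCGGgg
The GC box occurred 3 times before Arid5a, once before Smarcd3 and 4 times before Kdm6b, genes that moved in different directions. No other searched motif matched in these 3 windows. The AP-1 motif TGANTCA and the CArG box of serum response factor were searched on both strands. So was TGACG, the core of the cyclic AMP response element. The CCAAT box was searched by the letters in its name. The TATA box was searched as TATAA, and these too on both strands. Over the 57 members with a RefSeq promoter, 42 (73.7%) held a GC box, with 60.0% of 8758 tested genes and 30.5% of all 33469 promoters. The TATA box was present in 4 of the 57 (7.02%), in 12.5% of tested genes and in 24.0% of all promoters. The cyclic AMP core was found in 26.3% of members and 28.7% of tested genes, the CCAAT box in 36.8% and 35.5%, the AP-1 motif in 3.51% and 4.26%, and the CArG box in 1.75% and 1.16%. The median GC content of these windows was 62.4% for members, 60.4% for tested genes and 51.2% for all promoters. A motif match is a description of the letters, not of a bound site.

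Smarcd3 (BAF60c), the SWI/SNF subunit enriched in heart and skeletal muscle, had the clearest rise of the complex. Its 1410-nt ORF (Rnor_6.0 chromosome 4, 7078545 to 7108206, introns included) had 75.8 and 71.4 CPM in control 1 and 2 and 93.5 in each PE library. Both PE values lay above both control values, and the change was 1.27-fold (log2 0.35 ± 0.06 SE, n = 2 libraries per group, edgeR adjusted p = 3.6e-06). Its paralogues Smarcd1 and Smarcd2, which fill the same place in the complex, had log2 values of -0.06 ± 0.13 and -0.23 ± 0.10 and did not pass.

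The ATPase Smarca4 (Brg1), known for its part in switching myosin genes in stressed hearts, had 187 and 170 CPM in control and 185 and 198 in PE. The groups overlapped, and the rise was at the limit of the test (log2 0.10 ± 0.04, edgeR adjusted p = 0.049). Without control 2 the log2 value was 0.03 (adjusted p = 0.69), and without PE 2 it was 0.06 (adjusted p = 0.35). Smarca2 (Brm), the alternative ATPase, had 7.58 and 7.70 CPM in control and 6.94 and 6.01 in PE. All 4 values were low and the difference did not pass (log2 -0.24 ± 0.18, edgeR adjusted p = 0.31); its ORF had 0.103 counts per P-site. A P-site is the codon position of a footprint's peptidyl-tRNA; the authors' table gives their number per ORF, pooled over libraries. The median tested gene had 1.17 counts per P-site, so an ORF under 0.5 had few counts for its listed P-sites. How footprints were assigned to counts and to P-sites is not given. The core scaffold Smarcc2 fell by 0.19 on the log2 scale (SE 0.05, edgeR adjusted p = 0.0021).

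Arid1a and Arid1b, the alternative large subunits of canonical BAF, and Arid2 of the PBAF form all fell. For Arid1a, the values were 125 and 129 CPM in control and 111 and 109 in PE (log2 -0.21 ± 0.05, edgeR adjusted p = 3.5e-04). Arid1b went from 51.5 and 52.9 CPM to 39.4 and 42.4 (log2 -0.35 ± 0.07, edgeR adjusted p = 1.7e-04). Neither pair of groups overlapped, and the estimate for Arid1b was below that for Arid1a. Arid2 changed by log2 -0.20 ± 0.06 (edgeR adjusted p = 0.0052), and its call was lost without PE 1 (log2 -0.17, adjusted p = 0.053). The bromodomain subunits Brd7 (PBAF) and Brd9 (the non-canonical form) did not pass, at log2 0.15 ± 0.08 and -0.03 ± 0.10.

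Of 12 tested partners of SWI/SNF outside the member families, 1 was called higher and 3 lower (25%; all genes 22.8%), and with the length trend removed 1 was higher and 1 lower. Dpf3 (BAF45c), a histone reader subunit linked to heart and muscle development, had 15.8 and 13.5 CPM in control and 7.36 and 9.02 in PE, a 1.78-fold fall (log2 -0.83 ± 0.15, edgeR adjusted p = 3.3e-05). Dpf1, a neuronal relative, had 0.775 and 0.642 CPM in control and 2.42 and 2.19 in PE, a rise from a very low level (log2 1.70 ± 0.43, edgeR adjusted p = 0.0016). The PBAF subunit Pbrm1 and Dpf2 fell by 0.15 and 0.16 on the log2 scale.

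Among the ISWI and related SNF2 ATPases, Smarcal1, an enzyme that re-anneals DNA at stalled replication forks, was lower in PE, with 14.9 and 14.0 CPM in control and 10.7 and 11.7 in PE (log2 -0.36 ± 0.14, edgeR adjusted p = 0.031). The groups did not overlap, but the call was lost without control 1, control 2 or PE 1 (log2 -0.41 to -0.30, adjusted p = 0.050 to 0.17). Smarca5 (SNF2H), the main ISWI motor, had 57.5 and 50.9 CPM in control and 59.1 and 57.1 in PE. Its groups overlapped and the difference did not pass (log2 0.11 ± 0.07, edgeR adjusted p = 0.23, 0.318 counts per P-site). Smarca1 and Smarcad1 did not pass either.

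Chd4, the ATPase of the NuRD complex, had the highest level by deposited counts per length of all members, 85.7 CPM per kb of ORF in control and 82.5 in PE; by P-sites per kb it came after Smarcb1, whose counts were 0. The libraries had 483 and 505 CPM in control and 475 and 476 in PE. These values did not overlap, and the change of log2 -0.06 ± 0.03 did not pass (edgeR adjusted p = 0.071). Of the other NuRD subunits listed, 3 of 11 tested rose (27.3%; all genes 22.3%) and the other 8 did not pass. Hdac1, a histone deacetylase, rose by 0.50 on the log2 scale (SE 0.10, edgeR adjusted p = 6.6e-05) from 21.7 and 23.8 CPM to 32.3 and 32.2, at 0.313 counts per P-site. Mta1 rose by log2 0.29 ± 0.08 (edgeR adjusted p = 0.0024) and the histone chaperone Rbbp7 by 0.15 ± 0.02 (edgeR adjusted p = 3.3e-06).

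The other CHD genes gave 3 falls, all of long ORFs. With Chd4 included, 9 CHD genes were tested. The 3 falls are 33.3% of these, where all genes had 22.8% and those of at least 3000 nt 40.8%. Chd6 had 54.9 and 52.5 CPM in control and 46.1 and 43.2 in PE (log2 -0.26 ± 0.07, edgeR adjusted p = 0.0028), a call lost with DESeq2 (adjusted p = 0.058). Chd8, a remodeller best known from autism genetics, fell by log2 0.21 (edgeR adjusted p = 2.5e-04), and Chd2 by log2 0.19 (edgeR adjusted p = 0.0085), a call lost without control 2 (adjusted p = 0.058). Chd7, mutated in CHARGE syndrome with its heart defects, had 28.5 and 29.9 CPM in control and 28.3 and 25.3 in PE. Its groups lay just apart and the difference did not pass (log2 -0.13 ± 0.10, edgeR adjusted p = 0.30). Chd1 (0.200 counts per P-site), Chd1l, Chd3 and Chd9 did not pass, and Chd5 had 2 counts in all.

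Among the bromodomain proteins, Brd3, a reader of acetylated histones, was lower, from 43.2 and 42.4 CPM to 33.8 and 38.9 (log2 -0.23 ± 0.08, edgeR adjusted p = 0.020), a call lost without control 1 (adjusted p = 0.062) and without PE 1 (log2 -0.14, adjusted p = 0.29). Brd8, a subunit of the TIP60 acetyltransferase complex, fell by log2 0.18 (edgeR adjusted p = 0.024), and the call was lost without control 2 (adjusted p = 0.14) or PE 2 (adjusted p = 0.22). Brd1 did not pass, and Brd2 had 0 counts on both of its annotated ORFs in every library.

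**Figure D2:**
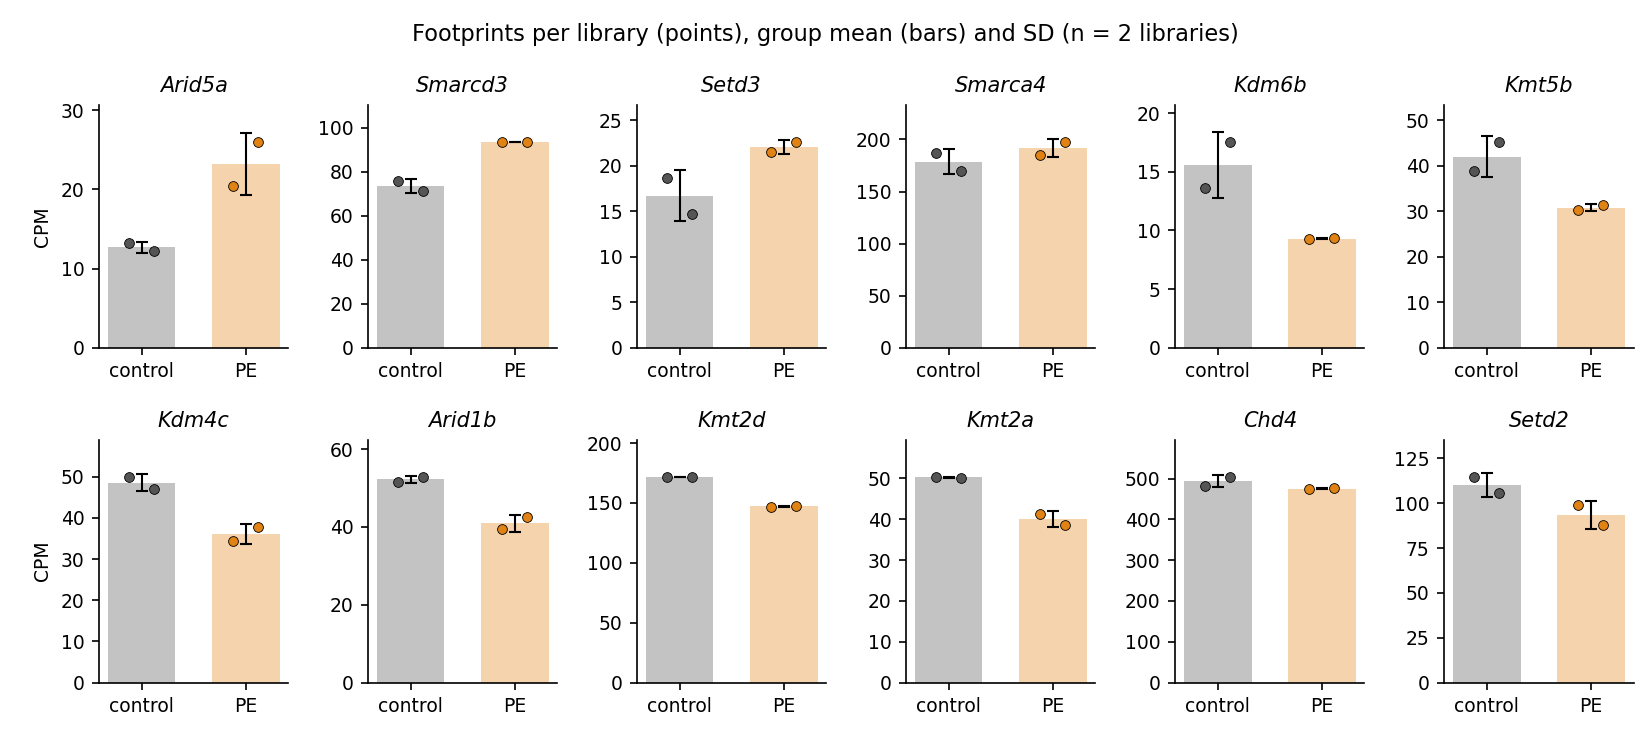
CPM of 12 members in the 4 libraries (points), with the group mean (bar) and SD (n = 2 libraries per group); each panel has its own axis from 0. Arid5a, Smarcd3 and Setd3 lie higher in both PE libraries, Kdm6b, Kmt5b, Kdm4c, Arid1b, Kmt2d, Kmt2a and Setd2 lower, and the Smarca4 groups overlap.

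Of 16 tested lysine demethylases, 7 fell (43.8%; all genes 22.8%, those of at least 3000 nt 40.8%) and the other 9 did not pass. With the length trend removed 1 was higher and 2 lower. Kdm6b (JMJD3), which removes the repressive methylation of histone H3 lysine 27, fell most of all 62 members. Its 3798-nt ORF (chromosome 10, 56001799 to 56008121) had 13.6 and 17.5 CPM in control and 9.28 and 9.35 in PE, with no overlap, a 1.68-fold fall (log2 -0.75 ± 0.15, edgeR adjusted p = 8.3e-05). Its relative Kdm6a (UTX) had 0.861 and 1.78 CPM in control and 2.42 and 0.975 in PE. These few counts, 0.0258 per P-site, overlapped between groups and the estimate has a wide error (log2 0.32 ± 0.45, edgeR adjusted p = 0.61).

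The Kdm4 enzymes act on methylated lysines 9 and 36 of H3. Kdm4c (chromosome 5, 90818817 to 91011791) fell from 50.0 and 47.1 CPM to 34.3 and 37.7 (log2 -0.43 ± 0.08, edgeR adjusted p = 3.1e-05). Kdm4a (JMJD2A), which promotes hypertrophy in mouse hearts, had 104 and 105 CPM in control and 88.9 and 92.3 in PE (log2 -0.20 ± 0.05, edgeR adjusted p = 0.0015). In both genes the 2 PE libraries were below the 2 control libraries. Kdm4b was counted at only 0.0389 per P-site and did not pass. Kdm3b, which acts on lysine 9, had 73.9 and 78.6 CPM in control and 63.3 and 62.2 in PE, again without overlap (log2 -0.28 ± 0.06, edgeR adjusted p = 2.5e-04).

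Kdm5b, an eraser of H3 lysine 4 methylation, was among the 5 members with the most deposited counts per length (48.1 CPM per kb in control and 42 in PE). It had 211 and 202 CPM in control and 179 and 182 in PE, and the groups did not overlap (log2 -0.19 ± 0.04, edgeR adjusted p = 6.7e-05). Kdm5c and Kdm2a fell by 0.14 and 0.13 on the log2 scale (edgeR adjusted p = 0.039 and 0.036). Kdm5c lost its call without any 1 of the 4 libraries (adjusted p = 0.082 to 0.14), and Kdm2a without control 1, control 2 or PE 2 (adjusted p = 0.086 to 0.21). Kdm1a (LSD1), the amine oxidase of the CoREST complex, was also among the 5 by the same measure, at 42.5 CPM per kb in control and 43.9 in PE. Its libraries had 115 and 106 CPM in control and 112 and 116 in PE, overlapping and not past the test (log2 0.05 ± 0.05, edgeR adjusted p = 0.45).

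The KMT2 and SETD1 families hold the main H3 lysine 4 methyltransferases. All 5 of their tested genes were lower by estimate (log2 -0.41 to -0.22), with 51.0% of all genes lower in the same sense. The median ORF of the 5 was 5796 nt long. Lower by estimate were 76.4% of all genes of 5000 to 10000 nt and 80.4% of those of at least 10000 nt. Of the 5, 3 passed (60%, all genes 22.8%, those of at least 3000 nt 40.8%, those of 5000 to 10000 nt 53.7%). With the length trend removed 1 was higher and 0 lower. Kmt2e overlapped between groups and did not pass on its 1053-nt ORF (log2 -0.37 ± 0.26) or its 4728-nt ORF (-0.13 ± 0.26). Kmt2a (MLL1) had 50.4 and 50.1 CPM in control and 41.4 and 38.6 in PE (log2 -0.33 ± 0.07, edgeR adjusted p = 4.2e-04). Kmt2d (MLL4), mutated in Kabuki syndrome with its heart malformations, had 172 CPM in each control library and 147 and 148 in PE (log2 -0.22 ± 0.04, edgeR adjusted p = 2.5e-05). Within each group the Kmt2d libraries were nearly equal, and the groups were well apart. Setd1b went from 13.7 and 15.3 CPM to 11.1 and 10.7 without overlap (log2 -0.41 ± 0.14, edgeR adjusted p = 0.015), but the call was lost without control 2 (log2 -0.33, adjusted p = 0.15) or PE 2 (log2 -0.38, adjusted p = 0.077). Of 10 tested partners of these families and of the demethylases, 4 fell (40.0%, all genes 22.8%), and the other 6 did not pass. The 4 were Cxxc1 (log2 -0.31), a CpG-binding subunit of the SETD1 complexes, Hcfc1 (-0.17), Kansl1 (-0.25) and the core subunit Ash2l (-0.13). With the length trend removed these 4 were at log2 -0.24, 0.08, -0.13 and -0.06 and did not pass. Dpy30, not called in the main test, was then the only fall (log2 -0.35, edgeR adjusted p = 0.0063).

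The remaining SET-domain genes moved both ways. Kmt5b, which methylates histone H4 lysine 20, fell from 38.8 and 45.2 CPM to 30.2 and 31.3 (chromosome 1, 219018675 to 219047463; log2 -0.46 ± 0.09, edgeR adjusted p = 5.7e-05). Setd2, the enzyme that trimethylates H3 lysine 36, had 115 and 105 CPM in control and 98.97 and 87.8 in PE (log2 -0.23 ± 0.06, edgeR adjusted p = 8.7e-04). Neither gene's groups overlapped. Setd3, which despite its family name methylates a histidine of actin, rose from 18.7 and 14.7 CPM to 21.5 and 22.6 (chromosome 6, 132023945 to 132075875; log2 0.41 ± 0.12, edgeR adjusted p = 0.0056). Setd3 was counted at 0.355 per P-site, and its call was lost without control 2 (log2 0.24, adjusted p = 0.20). Setd7, a monomethyltransferase of H3 lysine 4 and of other proteins, had 22.3 and 27.3 CPM in control and 27.1 and 27.7 in PE, overlapping and not past the test (log2 0.13 ± 0.10, edgeR adjusted p = 0.32).

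Arid5a had the largest rise of the members. It binds RNA as well as DNA and is known for stabilising inflammatory mRNAs. Its 1770-nt ORF (chromosome 9, 42872020 to 42884006) had 13.2 and 12.2 CPM in control and 20.5 and 26.0 in PE. The PE libraries differed from each other but both lay well above control, a 1.84-fold rise (log2 0.88 ± 0.13, edgeR adjusted p = 8.1e-07). The other tested ARID genes, Arid3a, Arid4a (0.194 counts per P-site) and Arid4b (0.0141), had few counts and did not pass, and Arid3b, with 26 counts in all, was below the filter.

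The falls of the members ran along a length trend that covered all genes. Member ORFs are long: the median of those tested was 3324 nt against 1389 nt for all tested genes, and 37 of 62 reached 3000 nt against 1587 of 11286. Over all genes the median log2 fold change went from 0.13 for ORFs under 600 nt, through -0.12 for 3000 to 5000 nt, to -0.35 for the 46 genes of at least 10000 nt. Among all genes of at least 3000 nt, 40.8% were called lower and 14.2% higher, with a median of -0.16. The 37 members of that length had 17 lower calls (45.9%) and 1 higher, with a median of -0.19. Below 3000 nt, 5 of 25 members fell (20.0%; all genes 19.9%) and 3 rose (12%; all genes 23.7%). The ratio of the 2 replicates of a group showed no such shift: its median log2 for the 37 long members was 0.01 in control and -0.02 in PE.

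**Figure D3:**
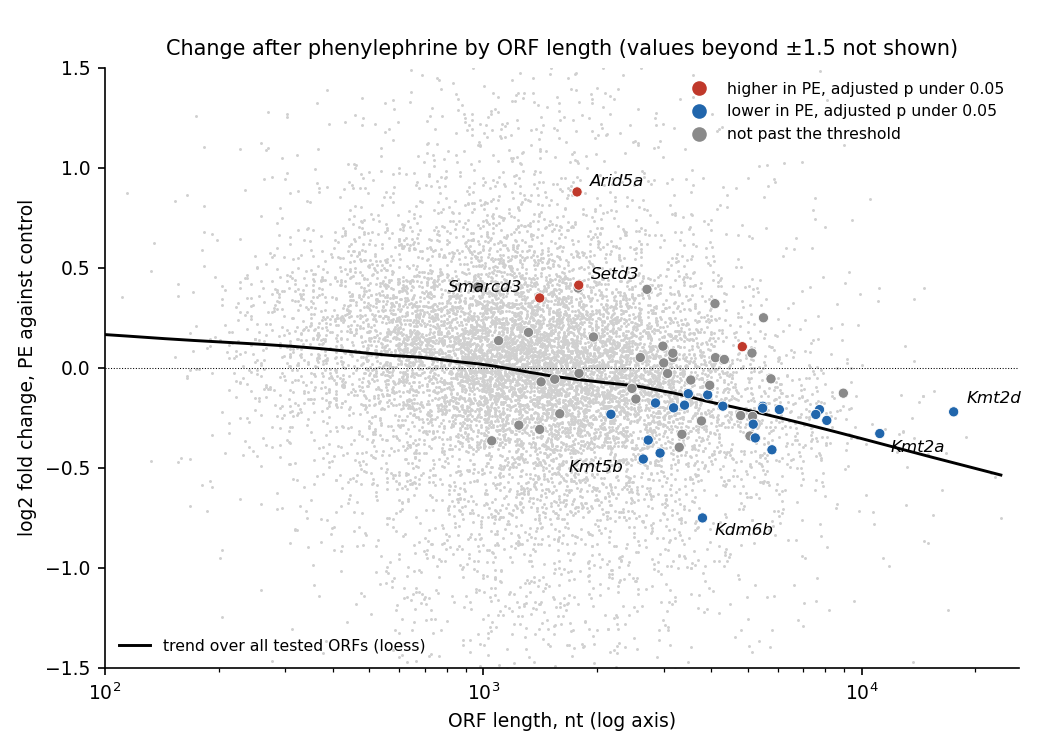
Log2 fold change of PE against control by ORF length (log axis) for all tested annotated ORFs (grey dots) and the 62 members (large points, coloured by call). The line is the loess trend over all tested ORFs. Of the 22 members called lower, 17 are at least 3000 nt long, and Arid5a and Kdm6b lie far from it.

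With the length trend removed from every ORF before testing, the split of the members reversed to 12 higher and 3 lower, and their median became 0.04. In the same fit 24.4% of all genes were called higher and 19.0% lower, with a median of 0.03; the members' shares were 19.4% and 4.84%. Of the 22 falls, 3 remained: Kdm6b (log2 -0.59, edgeR adjusted p = 0.0015), Kmt5b (-0.36, 0.0011) and Kdm4c (-0.31, 0.0015). All 4 rises remained, with log2 values of 0.94 for Arid5a (edgeR adjusted p = 2.5e-07), 0.47 for Setd3, 0.38 for Smarcd3 and 0.31 for Smarca4 (edgeR adjusted p = 3.2e-07). The trend was a fixed offset, so these adjusted p-values hold no error of the curve. For Smarca4, whose groups overlapped, the trend taken out was log2 -0.21. Another 8 members were called higher only in this fit, among them Brd7 (0.22), Chd3 (0.48), Chd4 (0.18), Kdm1a (0.15), Setd5 (0.23), Smarca5 (0.22) and Kmt2d (0.26). Kmt2d, at 17520 nt the longest member, thus changed from a fall to a rise, and Kmt2a, Arid1a and Setd2 came to 0.05, 0.04 and 0.06. A straight line in place of the loess curve gave 11 higher and 4 lower, and Kmt2d was then at log2 0.06. The cause of the trend was not tested.

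**Figure D4:**
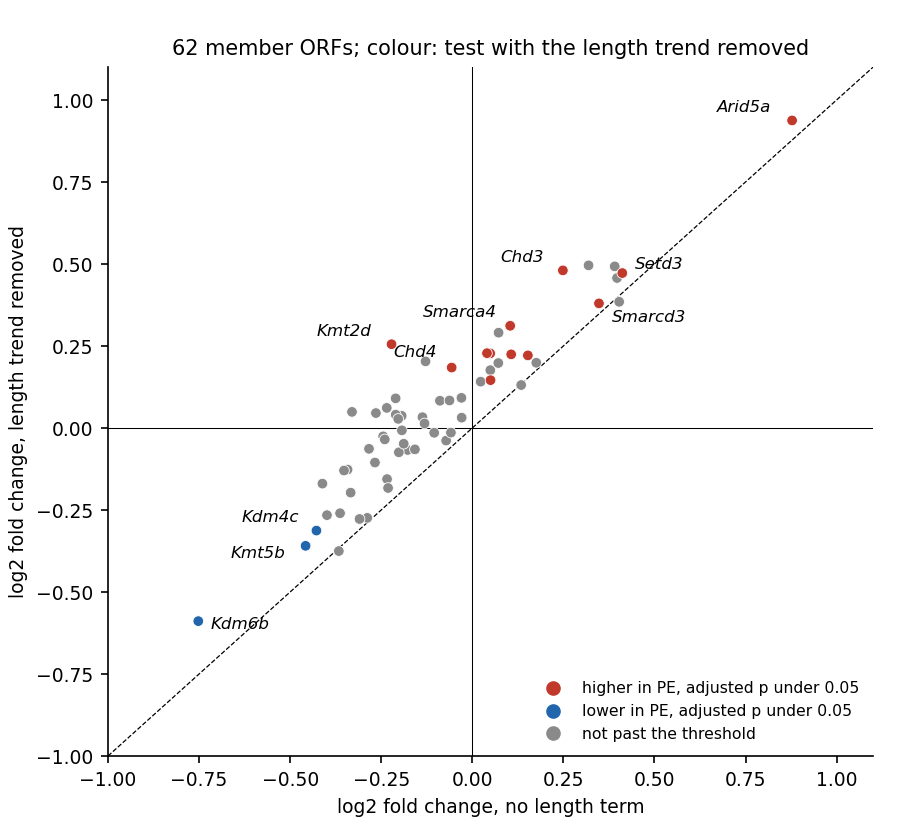
Log2 fold change of the 62 tested members without a length term (x axis) and with the length trend removed (y axis); the dashed line marks equal values, and colours give the call with the trend removed. Kdm6b, Kmt5b and Kdm4c remain lower, and Kmt2d moves from -0.22 to 0.26.

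By deposited counts per length, the 5 highest members were Chd4, Smarcd3 (52.2 CPM per kb in control and 66.3 in PE), Kdm5b, Kdm1a and Smarca4 (36.9 and 39.6). The median tested member had 9.68 CPM per kb over the 4 libraries, with 14.6 for all tested genes. This order by counts leaves out core SWI/SNF subunits whose counts and P-sites diverge. Smarcb1, the invariant core subunit, had 0 counts in all 4 libraries but 5406 P-sites on its 1128-nt ORF, which at 4793 P-sites per kb was the highest P-site density of the 68 genes, above Chd4 at 3529, Smarca5 at 2936 and Smarcd3 at 2516. Smarce1 had 0 counts and 3008 P-sites, Smarcc1 had 1 count and 7371 P-sites, and Brd2 had 0 counts and 1784 P-sites. These 4 genes could not be compared between groups.

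In all, 16 of the 68 members (23.5%) had under 0.5 counts per P-site, with 2632 of all 13694 genes (19.2%). Another listed ORF overlapped the genomic span on the same strand for 10 of those 16 and for 15 of the other 52 members. Over all genes these numbers were 1126 of 2632 and 1105 of 11062. Members with more than 1 annotated ORF were under 0.5 in 8 of 11 cases. Among the 51 tested members with at least 0.5 counts per P-site, 3 rose and 22 fell, Setd3 being the rise that is left out. Whether overlap sets the low counts was not tested.

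**Figure D5:**
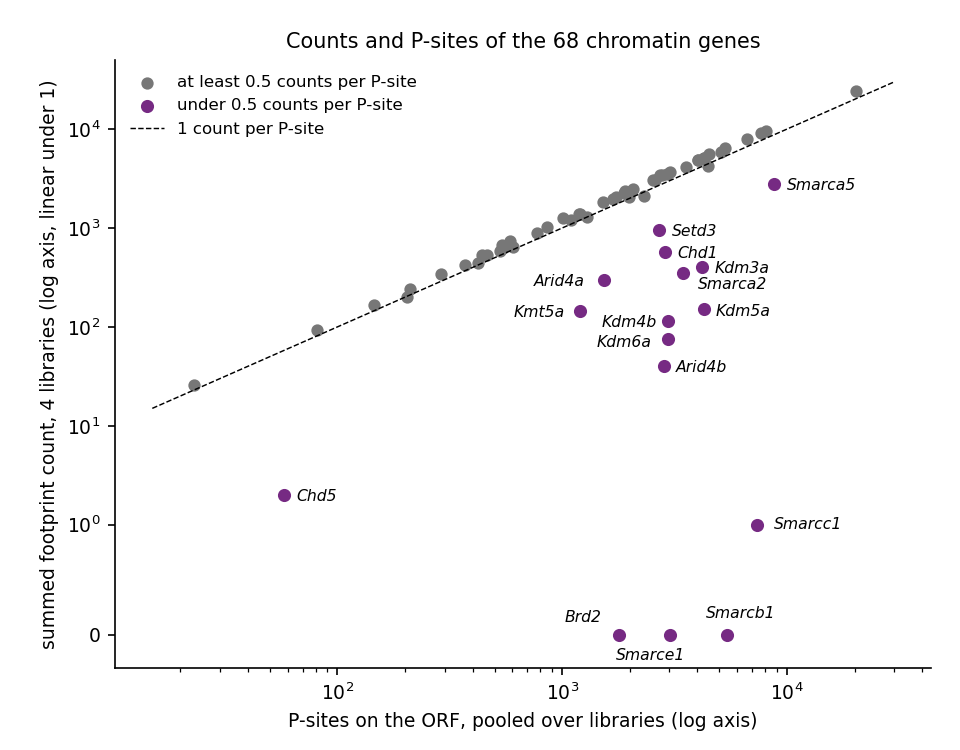
Summed footprint count over the 4 libraries against pooled P-sites for the 68 genes (both axes logarithmic, the count axis linear under 1); the dashed line marks 1 count per P-site and purple points have under 0.5. Most members follow the line, while Smarcb1, Smarce1, Brd2 and Smarcc1 sit at 0 or 1 count with 1784 to 7371 P-sites.

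Upstream ORFs, short reading frames in the leader of an mRNA, were listed for 15 of the 68 members (22.1%) and for 1491 of all 13694 genes (10.9%). Of the 42 further ORFs of all classes on member genes, in 26 genes, 17 had counts and 7 could be tested. Over all 12609 tested ORFs, 42.7% were called. The only one called here was a 45-nt upstream ORF of Kdm5c (chromosome X, 22302722 to 22302769), with counts of 19 and 32 in control and 36 and 49 in PE. These groups did not overlap, and the rise was log2 0.82 ± 0.31 (edgeR adjusted p = 0.034). The 3921-nt annotated ORF of Kdm5c was at log2 -0.14, and at 0.03 with the length trend removed (edgeR adjusted p = 0.67). That trend was log2 0.20 at 57 nt and -0.17 at 3921 nt. The difference between the 2 ORFs was not tested. An upstream ORF of Kdm8 that overlaps its coding sequence had counts of 1, 1, 10 and 5 in control 1, control 2, PE 1 and PE 2, below the filter.

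Other chromatin genes, 111 tested of 127 listed, gave 10 rises (9.01%) and 30 falls (27.0%) with a median of log2 -0.06, where all genes had 22.3% and 22.8%. With the length trend removed there were 18 rises (16.2%) and 8 falls (7.21%), where all genes had 24.4% and 19.0%. Among 7 tested genes of DNA methylation, 5 passed, all of them lower (71.4%, all genes 22.8%). With the trend removed 1 was still lower (14.3%, all genes 19.0%). Uhrf1, which brings the maintenance methyltransferase to replicated DNA, went from 43.7 and 45.7 CPM to 30.0 and 34.3 (log2 -0.47 ± 0.08, edgeR adjusted p = 1.7e-05; -0.39 with the trend removed). Dnmt1 fell by log2 0.32 and the oxygenase Tet2 by 0.32, and neither passed with the trend removed (log2 -0.11 and -0.08, edgeR adjusted p = 0.071 and 0.55). Of 17 Polycomb genes, Suz12 (log2 0.27) and Mtf2 (0.38) rose and Ring1 (-0.39) and Jarid2 (-0.31) fell, which is 11.8% each way. The methyltransferase Ezh2 was at -0.01 ± 0.11. With the trend removed Jarid2 was at -0.15 and did not pass.

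Smyd1, the muscle-specific methyltransferase needed for sarcomere formation, had 360 and 363 CPM in control and 282 in each PE library. The fall was clear of the replicate spread (log2 -0.36 ± 0.03, edgeR adjusted p = 2.3e-12) and was -0.32 with the length trend removed. Of the 20 tested methylation enzymes outside the member families, Smyd1 included, 1 rose (5%, all genes 22.3%), the oxygenase Jmjd6 (log2 0.45). Another 5 fell (25%, all genes 22.8%), among them Smyd1, Setdb1 (-0.24) and Smyd4 (-0.47). With the length trend removed 6 were higher (30%, all genes 24.4%) and 2 lower (10%, all genes 19.0%). The 2 were Smyd1 and Smyd4 (-0.39), while Setdb1 was at -0.07 and did not pass. Among 23 acetylation genes 3 rose (13.0%, all genes 22.3%), Hdac3 (log2 0.30), Hdac5 (0.27) and Trim24 (0.42). Another 6 fell (26.1%, all genes 22.8%), among them the acetyltransferases Kat6a (-0.42) and Crebbp (-0.30) and the deacetylase Hdac7 (-0.76 ± 0.14). With the length trend removed 5 were higher (21.7%, all genes 24.4%) and 2 lower (8.70%, all genes 19.0%). The 2 were Hdac7 (-0.65) and Kat6a (-0.21), while Crebbp was at -0.01 and did not pass. Of 11 other remodellers, 5 fell (45.5%, all genes 22.8%), led by Ep400 (log2 -0.41), Bptf (-0.24) and Srcap (-0.30), and the other 6 did not pass. With the trend removed Ep400, Bptf and Srcap were at -0.08, 0.07 and 0.05.

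In the authors' deposited table of their own comparison, 2 of 63 members with an adjusted p were higher and 12 lower, with 14.2% and 14.3% of all genes. All 14 were called in the same direction by edgeR. DESeq2 run on the same counts called 2 members higher and 13 lower, with 14.8% and 14.9% of all genes. The 11 calls lost with DESeq2 were those of Arid2, Brd3, Brd8, Chd2, Chd6, Kdm2a, Kdm5c, Setd1b, Setd3, Smarca4 and Smarcal1 (adjusted p = 0.058 to 0.26).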

How the data were processed

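Per the labels' protocols, cycloheximide-treated lysates were digested with RNase I and fragments of about ribosome size were sequenced. The submitters' processing notes name Rnor_6.0 as the genome build and STAR 2.4.2a, Bowtie 1.1.2 and cutadapt 2.0 as tools; which programs called ORFs and counted footprints is not given in the sources used here. As deposited by the authors, the values are raw counts per ORF and library. Per the file headers, the authors' annotation gives ORF length, coordinates, P-sites pooled over libraries and their own log2 fold changes and adjusted p-values. Per-sample columns left unused numbered 0.

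Counts were filtered (filterByExpr), scaled by TMM (factors 0.982 to 1.02) and tested with edgeR 4.0.16 in R 4.3.3 (robust quasi-likelihood, 4 libraries, no replicate term), with Benjamini-Hochberg adjustment over 12609 ORFs and a threshold of 0.05. The standard error was obtained as |log2 fold change| divided by the root of F. Between replicates the common biological coefficient of variation came to 2.18%, so small changes pass. CPM are counts relative to TMM-scaled totals. The length trend was a loess curve (span 0.5) of log2 fold change on log2 ORF length, removed as an offset. DESeq2 1.42.0, other scalings, no filter, a replicate block, summed ORFs and leaving out each library were alternatives. Scripts were tested on simulated data. With 2 libraries a group, an exact two-sided permutation test cannot go below p = 0.333, so only the model fitted across all ORFs was used.

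The members and gene lists were chosen with earlier results of these data known. Every member may be named. Values per library are given for the called members with the largest changes (up to 10 each way, groups not overlapping, mean count at least 20), the 5 with the most counts per length, and fixed genes (among them Brd2, Smarca4, Smarca2, Smarca5, Smarcd3, Arid1a, Arid1b, Chd4, Chd7, Kdm1a, Kdm6a, Kdm6b, Kdm4a, Kmt2a, Kmt2d, Setd2 and Setd7); of the wider lists, up to 3 genes each way with the smallest p, and Ezh2, Smyd1 and Hdac1. Brd3, Ash2l, Dpy30, the Kdm8 upstream ORF and the 4728-nt Kmt2e ORF were named after their values were seen. So were single cell type markers and members without library values. Listed symbols without a match (Kdm4d, Kdm5d, Kmt2b, Kmt2c, Setd9, Arid3c, Arid5b) were not analysed here. The values of 1 gene are not reported here, though it enters the counts. Brd2 had 2 ORFs tied at 0 counts, and the one with more P-sites was taken. The Kmt2e ORF with the most counts was 1053 nt long.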

Additional observations from a re-analysis of the deposited data

Results flagged for a closer look

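For 5 members, footprints appear in the authors' pooled P-sites but not in the counts that the comparisons use, which hold at most 3 counts for each over the 4 libraries. Smarcc1 had 7371 P-sites, Smarcb1 5406, Smarce1 3008, Brd2 1784 and Chd5 58. P-sites are not given by library, so no difference between PE and control can be read for these genes. Smarcc1, Brd2 and Smarce1 overlap other listed ORFs on the same strand by genomic span, while Smarcb1 and Chd5 do not. The part of overlap in the missing counts was not tested.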

How the results depend on the processing

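With the length trend removed, 12 members were higher and 3 lower (median log2 0.039) in place of 4 and 22 (median -0.15); a linear trend, chosen after seeing the data, gave 11, 4 and -0.011. Restricted to members with at least 0.5 counts per P-site, the median was -0.18, and with the trend also removed, a combination chosen after seeing the data, 10 were higher and 3 lower (median 0.033). DESeq2's Wald test called 2 higher and 13 lower, and no member reversed. Library totals alone gave 3 higher and 25 lower and lost 1 of the 26 calls. The members' median was then -0.19, when that of all genes moved from -0.01 to -0.05. Without each library in turn, 3 to 4 members were higher and 17 to 20 lower (median -0.17 to -0.13); with 1 library left in a group, it is assumed to vary like the other group. Of 26 called members, 16 kept the call without any 1 library. Other chromatin genes went from 10 higher and 30 lower (median -0.06) to 18 and 8 (0.063) with the length trend removed. The other scaling, no filter and summed ORFs reversed no member. The other scaling lost 1 of the 26 calls, and no filter and summed ORFs lost 0. The replicate block gave 4 higher and 22 lower (median -0.15) and changed no member's call. Deviations of same-numbered libraries from their group means had a correlation of r = 0.0031 over 7736 ORFs. Counting noise enters these deviations, so this value cannot tell whether such libraries share a culture or batch.

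Estimates changed sign for these members, on the log2 scale. With the length trend removed they were Arid1a 0.041, Arid2 0.028, Arid4b 0.084, Brd9 0.032, Chd2 0.037, Chd4 0.18, Chd6 0.046, Chd7 0.20, Chd8 0.090, Kdm2a 0.014, Kdm3a 0.083, Kdm5c 0.033, Kmt2a 0.049, Kmt2d 0.26, Setd2 0.061, Smarcad1 0.092, and with the linear trend Arid4b 0.062, Brd9 0.034, Chd4 0.12, Chd7 0.085, Kdm3a 0.048, Kmt2d 0.055, Smarcad1 0.084. With library totals alone they were Kdm2b -0.020, Setd5 -0.0026. Without 1 library, the ranges that crossed 0 were Arid3a -0.0017 to 0.93, Arid4b -0.52 to 0.29, Kdm1a -0.010 to 0.10, Kdm2b -0.033 to 0.068, Kdm6a -0.47 to 0.96, Setd5 -0.053 to 0.15, Setd6 -0.22 to 0.063, Smarca1 -0.046 to 0.18, Smarcad1 -0.13 to 0.055, Smarcd1 -0.16 to 0.061; none of these members was called.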
